A study of Arabidopsis thaliana with 48 samples.

Results

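Xyloglucan endotransglucosylase/hydrolase (XTH) genes encode enzymes of the plant cell wall, and 10 of them were followed here by their locus identifiers through every library of the series: XTH4 (AT2G06850), XTH5 (AT5G13870), XTH6 (AT5G65730), XTH7 (AT4G37800), XTH15 (AT4G14130), XTH16 (AT3G23730), XTH22 (AT5G57560, also called TCH4), XTH23 (AT4G25810), XTH24 (AT4G30270, also called MERI5B) and XTH33 (AT1G10550). They are 10 of the 32833 genes listed in each table, and the 23 other XTH genes of Arabidopsis served for comparison. Messenger RNA had been sequenced from rosette leaves of Arabidopsis thaliana rbohD knockout plants and of WT plants of the Columbia accession after 0, 2, 4 or 8 min of excess light on a single leaf. That illuminated leaf is called local, and a second leaf, kept out of the beam and frozen at the same moment, is called systemic. The 16 groups were therefore rbohD local, WT local, rbohD systemic and WT systemic leaves at each of the 4 times, with 3 replicates each, each replicate being leaves pooled over many plants. All plants of both genotypes were 4 to 5 weeks old, were grown at 23 °C in days of 8 h at 50 µmol per square metre per second and nights of 16 h, and the light treatment was 2000 µmol per square metre per second. RBOHD encodes a respiratory burst oxidase homologue, the plasma membrane NADPH oxidase that makes superoxide in the apoplast, and the comparison of rbohD with WT asks which responses depend on it.

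Xyloglucan is a branched glucan that binds to cellulose and ties the microfibrils of the primary wall together. XTH enzymes cut a xyloglucan chain and join the cut end to another chain, or in some members to water, and so can loosen, repair or strengthen a wall. Several members are known for their transcripts more than for their enzymes. TCH4 was found as a gene that responds to touch and also responds to brassinosteroids, heat and cold, MERI5B was found in shoot meristems, and XTH33 is predicted to be anchored in a membrane, unlike most of the family, which is secreted to the wall.

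The stretch around the catalytic site is printed for all members because it marks the 10 transcripts as one enzyme family. Each line gives 27 coding bases of the TAIR10.1 assembly in RefSeq, 5′ to 3′ on the coding strand, with both glutamate codons of the active site in capitals.
XTH4 (chr2:2764493-2764519, plus strand): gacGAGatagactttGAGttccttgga
XTH5 (chr5:4475714-4475740, minus strand): gatGAGatagactttGAGtttctaggg
XTH6 (chr5:26299616-26299642, plus strand): gacGAGctagattttGAGttcttggga
XTH7 (chr4:17776854-17776880, minus strand): gacGAGcttgattttGAGttcttagga
XTH15 (chr4:8137782-8137808, minus strand): gacGAGatagactttGAGtttctaggt
XTH16 (chr3:8550598-8550624, plus strand): gacGAGatagactttGAGtttcttggt
XTH22 (chr5:23307839-23307865, minus strand): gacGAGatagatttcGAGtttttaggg
XTH23 (chr4:13129072-13129098, plus strand): gacGAGattgactttGAGttcttggga
XTH24 (chr4:14820042-14820068, minus strand): gatGAGattgattttGAGttcttgggt
XTH33 (chr1:3480306-3480332, minus strand): gacGAGatagacataGAAttgttgggt
Each gene held this pattern once. Of the 27 bases, XTH33 shared 20 with XTH22, and the other 8 members shared between 21 and 23. The second glutamate codon is GAA in XTH33 and GAG in the other 9 members. Over the aligned coding sequence, the closest pairs were XTH22 and XTH23 with 82.4% identical bases, XTH15 and XTH16 with 81.7%, XTH22 and XTH24 with 75.4%, XTH6 and XTH7 with 74.0%, and XTH4 and XTH5 with 73.0%. No window of 75 bases of a member's transcript occurred elsewhere in the genome, a length taken from the 75-cycle single-end sequencing that the methods describe. Only exact matches to genomic sequence were sought, so windows across exon junctions could not match. The authors' mapping allowed mismatches and several locations per read, so reads shared between close relatives were not assessed. XTH15 overlaps AT4G14120 on the opposite strand by 382 bases, and the use of strand in counting is not given in the sources used here, so its few reads are uncertain. The others overlap no annotated gene.

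Gene-assigned reads numbered 13412657 to 28675623 in the 48 libraries. WT and rbohD were deposited as separate experiments, and each of the 4 tables (1 genotype and 1 leaf, 12 libraries) was normalized by itself, so genotype and experiment cannot be told apart and no level was tested between tables. RBOHD, the disrupted gene, lay between 337 and 697 normalized counts in the 24 rbohD libraries (median 422) and between 1096 and 2153 in the 24 WT libraries (median 1420). The tables differ in depth, and scaled to the reads of each library it lay between 21.9 and 42.1 RPM in rbohD (median 26.9) and between 48.0 and 94.4 RPM in WT (median 61.4), again without overlap. The summed level of 4 leaf mesophyll genes was at least 671800 normalized counts in every library. Of the lists of markers for other organs, 3 root genes summed to between 7.34 and 304.5 normalized counts, with 1 of them at no more than 3 reads in every library, and 3 flower genes to between 6.64 and 39.8. In a leaf sample, fewer cells of a type and less RNA per cell cannot be told apart.

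On the usual RPKM scale (reads per kilobase of exon, scaled to the depth of the library), averaged over the 16 groups, XTH6 stood highest at 251, followed by XTH7 at 140, XTH4 at 95.0, XTH24 at 67.0 and XTH22 at 13. XTH16 followed at 2.54 and XTH5 at 1.94, and the lowest were XTH23 at 0.343, XTH15 at 0.295 and XTH33 at 0.129. The order of neighbours was not fixed. At 0 min XTH16 stood at 1.29 ± 0.22 (SD, n = 3, as for all values with ± here) and XTH5 at 2.08 ± 0.13 in rbohD local leaves, whereas in rbohD systemic leaves XTH16 stood at 3.27 ± 0.098 and XTH5 at 2.31 ± 0.068. The levels of XTH23 and XTH15 overlapped within their spread at 0 min in WT systemic leaves, at 0.177 ± 0.10 and 0.292 ± 0.18.

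**Figure D1:**
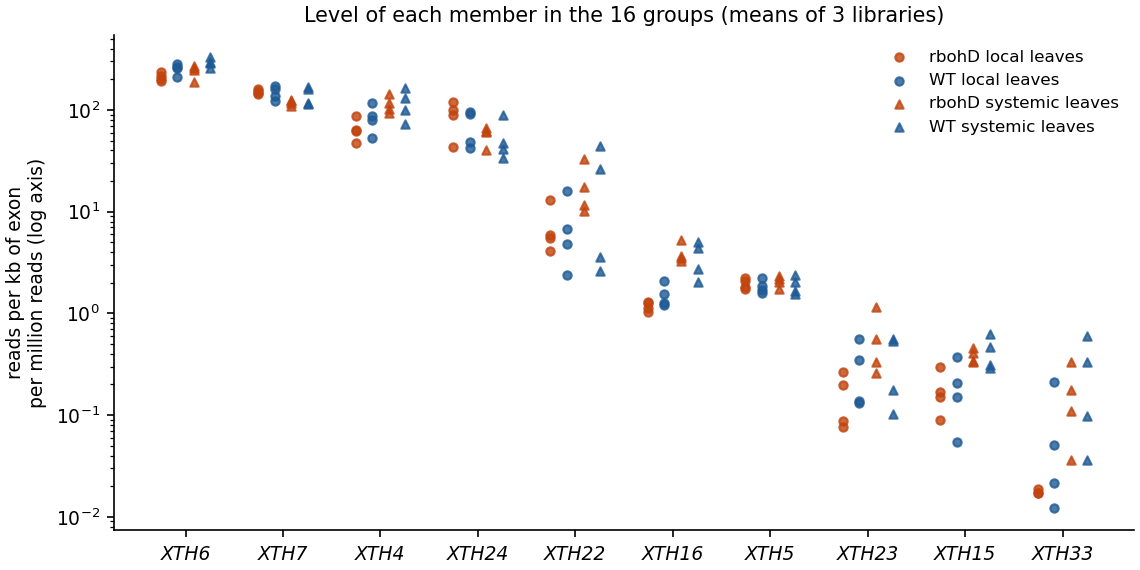
Level of each member in RPKM on a log axis, with 1 point for the mean of the 3 libraries of a group (circles local, triangles systemic, orange rbohD, blue WT). XTH6 is highest at a mean of 251 over the 16 groups and XTH33 lowest at 0.129, and the mean of XTH33 in rbohD local leaves at 4 min, which is 0, lies off the axis.

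Changes from 0 min were tested within each table with limma on log2(normalized count + 1), two-sided, with p-values adjusted by Benjamini-Hochberg over all genes tested, and a change is called where the adjusted p is under 0.05. A gene was tested where at least 3 libraries of the table held at least 10 normalized counts. By this filter 7 members were tested in rbohD local leaves, 8 in WT local leaves, 8 in rbohD systemic leaves and all 10 in WT systemic leaves. XTH15 and XTH33 passed it only in WT systemic leaves, and XTH23 in every table but rbohD local leaves. These 3 passed through the times at which they were high. In WT systemic leaves all libraries of XTH23 and XTH33 at 10 or more were of 2 or 8 min, as were 6 of 8 of XTH15. The same held for XTH23 in WT local leaves, and in rbohD systemic leaves 3 of its 5 such libraries were of 8 min. Their calls at these times were thus favoured by the filter, and their reads are given beside them. The 7 others were tested in every table.

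In rbohD local leaves, 3 members rose and 2 fell at 2 min, where 35.5% of all 17538 tested genes rose and 33.8% fell. At 4 min 2 rose and 1 fell, against 25% and 23.1% of all genes, and at 8 min again 2 rose and 1 fell, against 19.1% and 16%. In WT local leaves, 4 rose and 1 fell at 2 min (33.4% and 33.5% of 18055 genes), 2 rose and 1 fell at 4 min (13% and 10.8%), and 3 rose and 3 fell at 8 min (22.9% and 22.6%). In rbohD systemic leaves, 5 rose and 1 fell at 2 min (31.8% and 31.5% of 17609 genes), 3 rose and 1 fell at 4 min (13.5% and 12.3%), and 5 rose and 1 fell at 8 min (7.51% and 6.79%). In WT systemic leaves, 8 of 10 rose and 1 fell at 2 min (30.4% and 29.9% of 18140 genes), 2 rose and 2 fell at 4 min (13.9% and 14.1%), and 6 rose and 2 fell at 8 min (21.8% and 22.6%). With each library rescaled to one total in place of the deposited size factors, the share of called genes that were higher was 65.9% at 4 min in rbohD local leaves (52.0% as deposited), 66.2% at 2 min in WT local leaves (50.0%), 71.6% and 76.6% at 4 and 8 min in rbohD systemic leaves (52.3% and 52.5%), and 64.2%, 69.8% and 74.2% at 2, 4 and 8 min in WT systemic leaves (50.5%, 49.7% and 49.1%). Among the 7 members tested in every table, 5 rose and 1 fell in WT systemic leaves at 2 min, and 4 rose and 2 fell at 8 min. Their median change on the log2 scale at 2, 4 and 8 min was -0.13, -0.04 and -0.05 in rbohD local leaves, 0.24, -0.10 and -0.24 in WT local leaves, 0.21, 0.10 and 0.40 in rbohD systemic leaves, and 0.41, -0.01 and 0.28 in WT systemic leaves. The median of all genes lay between -0.01 and 0.03 in these comparisons.

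Markers of leaf cells were counted in the same way. Of all genes, between 30.4% and 35.5% rose and between 29.9% and 33.8% fell at 2 min in these tables. Of 4 leaf mesophyll genes, 1 rose and 3 fell in WT local leaves at 2 min (median -0.38). In WT systemic leaves 1 of them rose and 2 fell (median -0.18). Of 3 phloem genes, 1 rose and 2 fell in rbohD systemic leaves at 2 min (median -0.44), while all 3 rose in WT systemic leaves (median 0.60). Among them the sugar exporter SWEET12, with the lowest change of the 3 in rbohD and the highest in WT, changed by -0.92 and 2.08. At 8 min 1 fell in rbohD systemic leaves (median -0.28), where 6.79% of all genes fell. None was called in WT systemic leaves (median 0.11), where 21.8% rose and 22.6% fell. In local leaves at 2 min, 1 rose and 1 fell in rbohD (median -0.10) and 2 rose in WT (median 0.50). Summed over the list, the level lay between 3249 and 4377 normalized counts in rbohD local, 5551 and 7469 in WT local, 2839 and 3659 in rbohD systemic and 5011 and 7063 in WT systemic libraries. The tables were normalized separately and the rbohD libraries are less deep, so these sums give no comparison of the genotypes. Of 3 guard cell genes, 1 fell in rbohD local leaves at 2 min (median 0.06) and 1 rose and 2 fell in WT local leaves (median -0.47), with 1 fall in rbohD systemic leaves (median -0.06) and 1 rise and 1 fall in WT systemic leaves (median -0.13). The 3 genes of dividing cells, which summed to at most 106.5 normalized counts, had 1 rise and 1 fall in each leaf of rbohD and no call in WT at 2 min. The part of these cells in the changes of the members was not tested.

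**Figure D2:**
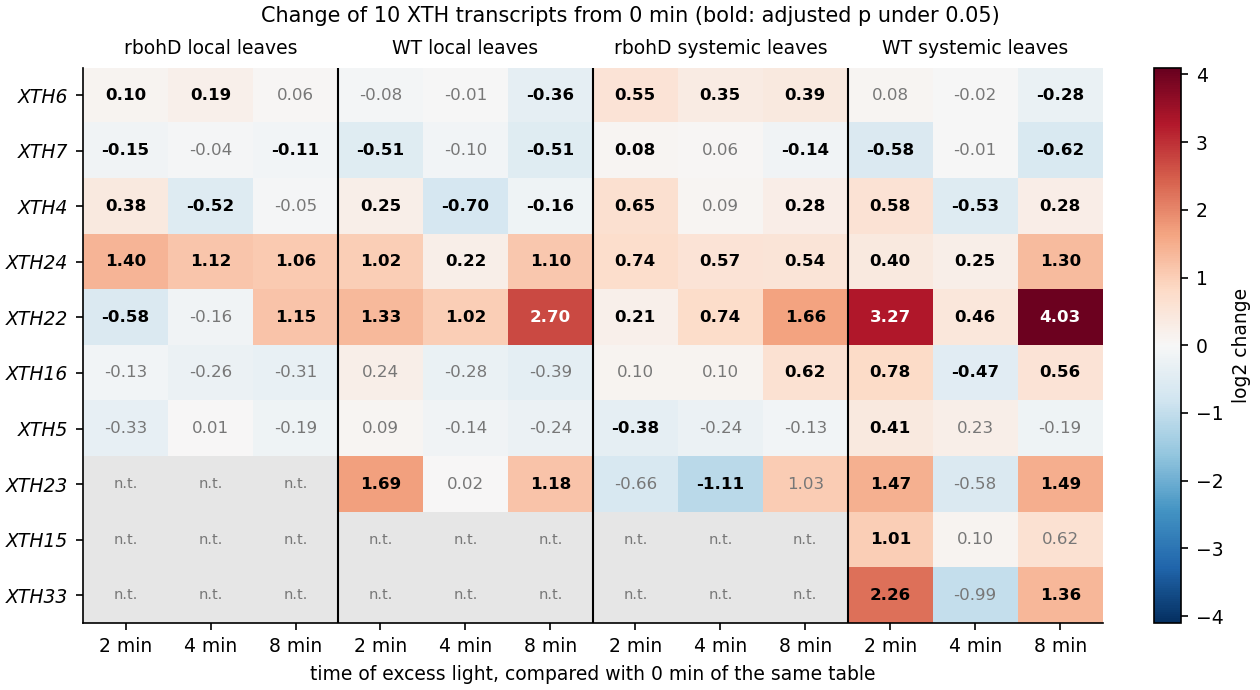
Change of each member from 0 min of the same table on the log2 scale (rows, ordered by level per length, columns the 3 times in each of 4 tables, bold where the adjusted p is under 0.05, n.t. where the gene was not tested). XTH22 spans from -0.58 in rbohD local leaves at 2 min to 4.03 in WT systemic leaves at 8 min, and XTH24 is the one member called higher in all 12 comparisons.

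XTH22 had the widest range of all members. In rbohD local leaves its 3 libraries held 125, 180 and 151 normalized counts at 0 min, 95.7, 91.4 and 115 at 2 min, 135, 139 and 130 at 4 min, and 367, 338 and 306 at 8 min. In WT local leaves they held 78.8, 95.2 and 90.9 at 0 min, 212, 241 and 216 at 2 min, 195, 181 and 165 at 4 min, and 623, 559 and 555 at 8 min. After 2 min of light every rbohD local library was thus below every rbohD library of 0 min, and every WT local library was above every WT library of 0 min. XTH22 in rbohD systemic leaves held 267, 239 and 273 at 0 min, 304, 322 and 277 at 2 min, 393, 479 and 437 at 4 min, and 786, 865 and 818 at 8 min. Its WT systemic libraries held 62.4, 143 and 99.4 at 0 min, 844, 895 and 1086 at 2 min, 128, 133 and 138 at 4 min, and 1591, 1650 and 1527 at 8 min. The course in WT systemic leaves had 2 peaks, at 2 and at 8 min, with the 4 min libraries inside the range of 0 min, whereas in rbohD systemic leaves the level climbed with time.

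**Figure D3:**
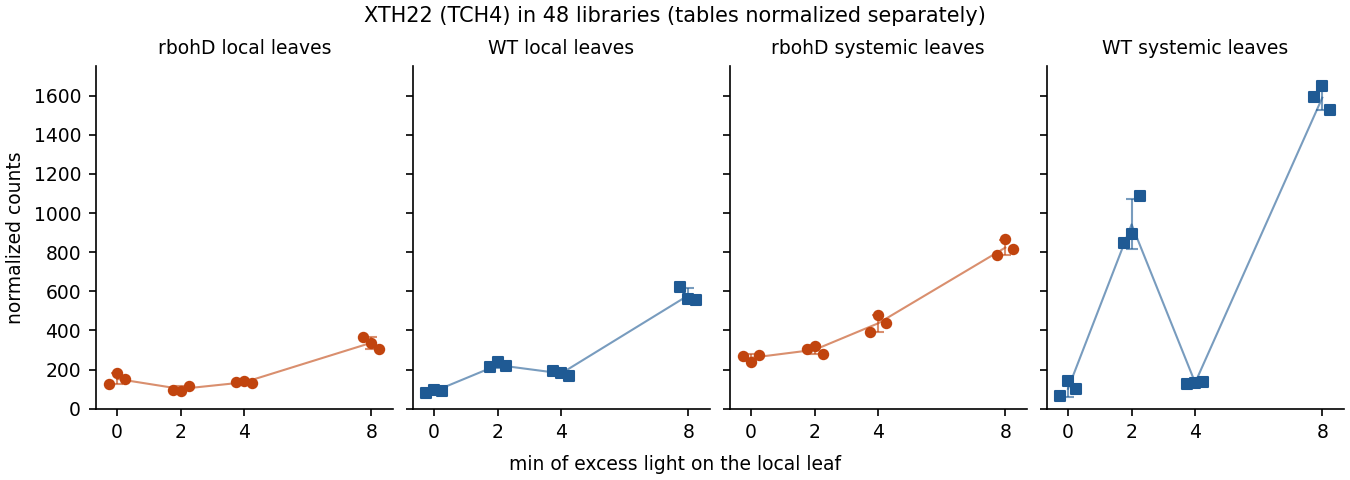
XTH22 in normalized counts (y axis) in each of 48 libraries against the time in the light (x axis, min), with lines and bars for the mean and SD of the 3 replicates. In WT systemic leaves the libraries of 2 min lie between 844 and 1086 and those of 8 min between 1527 and 1650, while those of 4 min lie between 128 and 138.

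At 8 min XTH22 had risen in each of the 4 tables. The log2 change was 1.15 (SE 0.11, adjusted p 1.6e-09) for rbohD local, 2.70 (SE 0.091, adjusted p 9.8e-17) for WT local, 1.66 (SE 0.069, adjusted p 2.8e-21) for rbohD systemic and 4.03 (SE 0.17, adjusted p 7.8e-15) for WT systemic leaves, the last a 16.3-fold change on the scale of normalized count + 1. At 2 min the local leaves moved apart, with a fall of the rbohD level (-0.58, SE 0.11, adjusted p 4.3e-05) and a rise of the WT level (1.33, SE 0.091, adjusted p 1.7e-11). At 4 min in rbohD local leaves it was -0.16 (adjusted p 0.26), or -0.29 (adjusted p 0.039) without replicate 1 of 0 min. In systemic leaves at 2 min the change was 0.21 in rbohD (SE 0.069, adjusted p 0.0073), which lost its call without replicate 2 of 0 min (0.15, adjusted p 0.074) or of 2 min (0.16, adjusted p 0.061), and 3.27 in WT (SE 0.17, adjusted p 2.1e-13), a 9.64-fold rise. At 4 min XTH22 stood 0.74 higher in rbohD systemic leaves (adjusted p 2.4e-11) and 1.02 higher in WT local leaves (adjusted p 1.8e-08). Its rise of 0.46 in WT systemic leaves at 4 min (adjusted p 0.044) rested on the lowest library of 0 min, replicate 1 with 62.4 normalized counts, without which it was 0.15 (adjusted p 0.36). It was also not called by edgeR (0.38, adjusted p 0.13) or DESeq2 (0.38, adjusted p 0.27) on the recovered reads.

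The change of XTH22, taken with its sign, was lower in rbohD than in WT at all 3 times in local leaves, and at 2 and 8 min in systemic leaves. The difference, rbohD minus WT, was -1.91 at 2 min (SE 0.15, adjusted p 4.7e-13), -1.18 at 4 min (SE 0.15, adjusted p 1.1e-07) and -1.55 at 8 min (SE 0.15, adjusted p 1.3e-09) in local leaves. In systemic leaves it was -3.06 at 2 min (SE 0.20, adjusted p 6.5e-16) and -2.37 at 8 min (SE 0.20, adjusted p 2.8e-12), while at 4 min it was 0.28 with an interval of 1.96 SE from -0.10 to 0.67 (adjusted p 0.36). Without replicate 1 of the WT systemic leaves at 0 min, the difference at 4 min was 0.59 (adjusted p 0.0018). These are differences of changes from different starting levels. At 0 min XTH22 took 5.91 ± 1.1 RPKM in rbohD local leaves and 2.4 ± 0.23 in WT local leaves, and 10.1 ± 0.85 in rbohD systemic leaves and 2.61 ± 1.1 in WT systemic leaves, values set side by side and not tested. At 8 min it took 33.0 ± 1.2 in rbohD systemic leaves and 44.4 ± 2.0 in WT systemic leaves.

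Between the leaves, the change of XTH22 was lower in local than in systemic leaves at all times in rbohD and at 2 and 8 min in WT. In rbohD the difference, local minus systemic, was -0.79, -0.90 and -0.51 at the 3 times (adjusted p 1.3e-05, 2.9e-06 and 0.0047). In WT it was -1.94 at 2 min (SE 0.21, adjusted p 3.2e-07) and -1.33 at 8 min (SE 0.21, adjusted p 2.3e-05). At 4 min in WT it was 0.56 (adjusted p 0.13), and this passed the threshold with the pool of plants as a block (0.56, adjusted p 0.028) or without replicate 1 of the systemic leaves at 0 min (0.87, adjusted p 0.00017).

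XTH23, the closest relative of XTH22 in coding sequence, was expressed far lower and its reads are few. Summed over 3 libraries, it had 17, 5, 6 and 13 reads at 0, 2, 4 and 8 min in rbohD local leaves, where it was not tested, and 13, 45, 12 and 37 at these times in WT local leaves. The systemic leaves of rbohD had 37, 20, 17 and 87 reads, and in WT systemic leaves 18, 48, 10 and 56. The WT libraries of both leaves thus repeat the peaks of 2 and 8 min, and rbohD libraries hold no peak at 2 min. XTH23 rose by 1.69 in WT local leaves (SE 0.36, adjusted p 0.00027) and 1.47 in WT systemic leaves (SE 0.37, adjusted p 0.0018) at 2 min, and by 1.18 (adjusted p 0.0099) and 1.49 (adjusted p 0.0023) in these leaves at 8 min, calls that the filter favoured. Its reads at 2 min over 0 min gave ratios of 0.288 in rbohD local (exact 95% counting interval from 0.0829 to 0.812), 3.78 in WT local (2.01 to 7.65), 0.582 in rbohD systemic (0.320 to 1.03) and 2.80 in WT systemic leaves (1.60 to 5.12). In rbohD systemic leaves its change was -0.66 at 2 min (adjusted p 0.14), -1.11 at 4 min (adjusted p 0.030) and 1.03 at 8 min (adjusted p 0.071). The call at 4 min was lost in DESeq2 (-1.16, adjusted p 0.11), without a filter on low values (-1.11, adjusted p 0.064), and without replicate 1 of 0 min (-0.83, adjusted p 0.18), replicate 3 of 0 min (-1.09, adjusted p 0.073) or replicate 3 of 4 min (-0.64, adjusted p 0.27). The difference at 2 min in systemic leaves, rbohD minus WT, was -2.13 (SE 0.56, adjusted p 0.0016), a test that XTH23 entered through its high libraries of 2 and 8 min in WT and of 8 min in rbohD. At 4 and 8 min it was -0.53 and -0.47 (adjusted p 0.59 and 0.56), each with an SE of 0.56. The starting levels differed and were not tested. At 0 min XTH23 took 0.560 ± 0.25 RPKM in rbohD systemic and 0.177 ± 0.10 in WT systemic leaves. At 2 min it took 0.330 ± 0.13 and 0.540 ± 0.053, and at 8 min 1.16 ± 0.12 and 0.557 ± 0.10.

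XTH33, the member with the predicted membrane anchor, was near the floor of detection. In rbohD local leaves it had 1 read or none in the 3 libraries of each time together, and in WT local leaves 2, 15, 1 and 5 over the 4 times. The ratio of the 15 reads to the 2 reads, corrected for library size, was 8.2 with an exact 95% counting interval from 1.91 to 73.9. XTH33 in rbohD systemic leaves had 10, 6, 2 and 21 reads over the 4 times, and in WT systemic leaves 9, 47, 3 and 28. The ratio at 2 min to 0 min in systemic leaves was 0.646 in rbohD (interval from 0.193 to 1.96) and 5.49 in WT (interval from 2.66 to 12.7), intervals that cover counting error only and do not overlap. At 8 min it was 1.78 in rbohD (0.804 to 4.24) and 2.90 in WT (1.33 to 6.98), and these intervals overlap. In WT systemic leaves, limma gave a change of 2.26 at 2 min (SE 0.53, adjusted p 0.00084) and 1.36 at 8 min (adjusted p 0.041). The filter favoured both calls, since XTH33 was tested only through its libraries of these times. The call at 8 min was lost in DESeq2 (1.57, adjusted p 0.062) and without replicate 1 (0.96, adjusted p 0.17) or 2 (1.42, adjusted p 0.062) of 0 min or replicate 1 (1.17, adjusted p 0.15) or 2 (1.13, adjusted p 0.16) of 8 min. The gene was not tested in rbohD, so these reads are only set side by side and the difference between the genotypes was not tested.

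The 250 bases before the annotated start are shown for XTH22, XTH23 and XTH33 because these were the members whose change was above 1 on the log2 scale at both 2 and 8 min in WT systemic leaves. Capitals mark matches to the motifs named after them, and the sequences are those of TAIR10.1 in RefSeq, 5′ to 3′ on the strand of the gene.
XTH22 (chr5:23308681-23308930, minus strand): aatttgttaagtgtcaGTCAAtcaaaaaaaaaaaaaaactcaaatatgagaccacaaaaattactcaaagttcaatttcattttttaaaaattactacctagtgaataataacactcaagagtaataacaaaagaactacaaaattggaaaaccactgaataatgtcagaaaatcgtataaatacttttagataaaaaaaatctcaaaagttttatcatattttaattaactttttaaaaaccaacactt
XTH23 (chr4:13128144-13128393, plus strand): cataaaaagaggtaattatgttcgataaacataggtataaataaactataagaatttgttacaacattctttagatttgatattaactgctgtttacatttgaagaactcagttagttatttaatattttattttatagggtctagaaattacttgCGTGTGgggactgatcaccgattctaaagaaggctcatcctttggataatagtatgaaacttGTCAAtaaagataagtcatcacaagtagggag
XTH33 (chr1:3481042-3481291, minus strand): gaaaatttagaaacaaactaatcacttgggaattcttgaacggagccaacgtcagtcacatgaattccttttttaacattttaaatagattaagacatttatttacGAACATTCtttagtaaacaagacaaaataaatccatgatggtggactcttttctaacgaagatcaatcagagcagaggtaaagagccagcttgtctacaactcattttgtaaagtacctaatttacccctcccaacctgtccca
The windows searched ran from 250 bases before to 50 after the start of each gene, 300 bases in all, on both strands. The W-box core TTGAC, the element bound by WRKY factors, was in 5 of 10 members (XTH5, XTH6, XTH15, XTH22 and XTH23) and in 50.5% of the 27443 promoters of this length. XTH22 held it at -234 to -230, in the sequence above as GTCAA. XTH23 held the brassinosteroid response element CGTGTG at -94 to -89, which occurred in 6.52% of promoters, and XTH33 the heat shock element core GAANNTTC at -144 to -137, which occurred in 11.6%. No member held the G-box CACGTG (7.68% of promoters), the rapid stress response element CGCGTT (3.40%) or the element CGTGCG (1.96%) in these windows, and no motif was shared by all 3 genes printed.

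XTH24 rose in all 12 comparisons. Its 3 libraries held 737, 972 and 841 normalized counts at 0 min in rbohD local leaves, and 2202, 2292 and 2179 at 2 min, 2054, 1876 and 1613 at 4 min, and 1802, 1800 and 1692 at 8 min. In WT local leaves they held 996, 1361 and 1173 at 0 min, 2298, 2440 and 2389 at 2 min, 1344, 1453 and 1300 at 4 min, and 2454, 2361 and 2732 at 8 min. The rbohD libraries stayed high after 2 min, while the WT libraries of 4 min overlapped those of 0 min. XTH24 in rbohD systemic leaves held 786, 822 and 773 at 0 min, 1339, 1410 and 1223 at 2 min, 1137, 1170 and 1227 at 4 min, and 1245, 1051 and 1177 at 8 min. Its WT systemic libraries held 845, 1172 and 989 at 0 min, 1195, 1394 and 1344 at 2 min, 1296, 1123 and 1139 at 4 min, and 2459, 2597 and 2293 at 8 min. In systemic leaves the WT libraries of 8 min lay above all others, whereas the rbohD libraries of 8 min overlapped those of 4 min.

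The rises of XTH24 were 1.40, 1.12 and 1.06 on the log2 scale at 2, 4 and 8 min in rbohD local leaves (adjusted p at most 2.3e-13) and 1.02, 0.22 and 1.10 in WT local leaves (adjusted p at most 0.034). They were 0.74, 0.57 and 0.54 in rbohD systemic leaves (adjusted p at most 1.3e-10) and 0.40, 0.25 and 1.3 in WT systemic leaves (adjusted p at most 0.029). The 2 rises in WT at 4 min were the least secure. That in local leaves (adjusted p 0.034) was lost with edgeR (0.21, adjusted p 0.052), DESeq2 (0.21, adjusted p 0.18), without a filter (0.22, adjusted p 0.065), with libraries rescaled to one total (0.21, adjusted p 0.052) and without replicate 1 of 0 min (0.11, adjusted p 0.24), replicate 3 of 0 min (0.23, adjusted p 0.074) or replicate 1 (0.24, adjusted p 0.067) or 2 (0.18, adjusted p 0.15) of 4 min. That in systemic leaves (adjusted p 0.029) was lost with DESeq2 (0.24, adjusted p 0.15), without a filter (0.25, adjusted p 0.057) and without replicate 1 (0.14, adjusted p 0.21) or 3 (0.25, adjusted p 0.064) of 0 min or replicate 1 of 4 min (0.19, adjusted p 0.16).

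Between the genotypes XTH24 differed in both directions. In local leaves the difference, rbohD minus WT, was 0.37 at 2 min (SE 0.12, adjusted p 0.0073) and 0.90 at 4 min (SE 0.12, adjusted p 1.3e-07), and at 8 min it was -0.04 with an interval of 1.96 SE from -0.27 to 0.19. In systemic leaves it was 0.34 at 2 min (adjusted p 0.0078), 0.32 at 4 min (adjusted p 0.036) and -0.76 at 8 min (SE 0.11, adjusted p 5.3e-07). With each library rescaled to one total, the differences at 2 min in local leaves (0.26, adjusted p 0.061) and at 2 and 4 min in systemic leaves (0.20 and 0.31, adjusted p 0.14 and 0.070) were not called. Leaving out replicate 2 of the WT systemic leaves at 0 min likewise gave 0.22 at 2 min and 0.20 at 4 min (adjusted p 0.058 and 0.18). Between the leaves, the rise was larger in local than in systemic leaves of rbohD at 2, 4 and 8 min, by 0.66, 0.55 and 0.52 (adjusted p 5.5e-07, 3.2e-05 and 4.0e-05), and larger in local leaves of WT at 2 min by 0.63 (adjusted p 0.0014), with -0.03 at 4 min (adjusted p 0.94) and -0.20 at 8 min (adjusted p 0.38).

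XTH4 and XTH16 shared a course in WT systemic leaves, higher at 2 min, lower at 4 min and higher at 8 min. XTH4 held 1546, 1710 and 1746 normalized counts at 0 min in rbohD local leaves, 2094, 2264 and 2168 at 2 min, 1127, 1373 and 1010 at 4 min, and 1657, 1573 and 1584 at 8 min. In WT local leaves it held 3068, 3434 and 3274 at 0 min, 3897, 4069 and 3659 at 2 min, 2056, 2128 and 1839 at 4 min, and 2900, 2720 and 3106 at 8 min. At 4 min no library of either genotype reached the range of 0 min. Means of XTH4 at 0, 2, 4 and 8 min were 2425 ± 193, 3822 ± 544, 2572 ± 185 and 2959 ± 313 in rbohD systemic leaves and 3991 ± 438, 5972 ± 858, 2762 ± 133 and 4820 ± 162 in WT systemic leaves. The dip at 4 min is thus in 3 of 4 tables, and rbohD systemic leaves at 4 min overlapped those at 0 min.

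XTH4 rose at 2 min in every table, by 0.38 in rbohD local, 0.25 in WT local, 0.65 in rbohD systemic and 0.58 in WT systemic leaves (adjusted p at most 0.00054). At 4 min it fell by 0.52 in rbohD local leaves (adjusted p 1.1e-07), 0.70 in WT local leaves (adjusted p 3.7e-09) and 0.53 in WT systemic leaves (adjusted p 2.1e-05), against a change of 0.09 in rbohD systemic leaves (adjusted p 0.37). The difference between the genotypes in systemic leaves at 4 min was 0.61 (SE 0.12, adjusted p 0.00027), and no other difference of XTH4 between the genotypes was called. At 8 min XTH4 stood 0.28 higher in both rbohD and WT systemic leaves (adjusted p 0.0016 and 0.0060), and the call in rbohD was lost in DESeq2 (0.29, adjusted p 0.10). Its change in WT local leaves at 8 min (-0.16, adjusted p 0.022) was not called with one total (-0.15, adjusted p 0.054), and without replicate 2 (-0.13, adjusted p 0.11) or 3 (-0.16, adjusted p 0.057) of 0 min or replicate 1 (-0.16, adjusted p 0.053) or 2 (-0.12, adjusted p 0.14) of 8 min.

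XTH16 was at 20.8 to 29.8 normalized counts at 0 min in rbohD local leaves and stayed between 15.4 and 32.6 at the later times, and at 38.1 to 48.1 in WT local leaves with 26.8 to 57.6 later, without a called change. Its rbohD systemic libraries held 61.0, 67.1 and 65.9 at 0 min and 99.3, 101 and 99.0 at 8 min, a rise of 0.62 (SE 0.13, adjusted p 0.00083) to which DESeq2 gave no adjusted p. The WT systemic libraries held 83.9, 89.4 and 71.7 at 0 min, 143, 141 and 137 at 2 min, 63.0, 51.2 and 62.1 at 4 min, and 121, 117 and 123 at 8 min. No library of the 3 later times overlapped 0 min, and the changes were 0.78, -0.47 and 0.56 (adjusted p 8.1e-06, 0.0051 and 0.00054). The difference of rbohD minus WT in systemic leaves was -0.68 at 2 min (SE 0.17, adjusted p 0.00069), 0.57 at 4 min (SE 0.17, adjusted p 0.013) and 0.06 at 8 min (adjusted p 0.82). That at 4 min was lost in DESeq2 (0.58, adjusted p 0.094) and without replicate 2 of WT systemic leaves at 4 min (0.47, adjusted p 0.051). At 8 min the difference of the change, local minus systemic, was -0.93 in rbohD (adjusted p 0.011) and -0.95 in WT (adjusted p 0.0019).

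XTH6, the most abundant member, rose in rbohD systemic leaves and fell in both leaves of WT at 8 min. It held 4479, 4637 and 4804 normalized counts at 0 min and 4972, 4796 and 4705 at 8 min in rbohD local leaves, and 8768, 9025 and 9128 at 0 min and 7346, 6838 and 6864 at 8 min in WT local leaves. Its rbohD systemic libraries held 4527, 4548 and 4429 at 0 min, 6636, 6447 and 6704 at 2 min, 5621, 5742 and 5798 at 4 min, and 5902, 6078 and 5780 at 8 min. Its WT systemic means at 0, 2, 4 and 8 min were 10454 ± 344, 11011 ± 340, 10346 ± 858 and 8612 ± 142. Every rbohD systemic library after 0 min was above those of 0 min, and every WT library of 8 min was below those of 0 min.

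In rbohD systemic leaves XTH6 rose by 0.55 at 2 min (SE 0.030, adjusted p 1.2e-19), 0.35 at 4 min (adjusted p 3.0e-12) and 0.39 at 8 min (adjusted p 2.7e-13). In rbohD local leaves it rose by 0.10 at 2 min (adjusted p 0.015) and 0.19 at 4 min (adjusted p 3.4e-05), and the change at 8 min was 0.06 (adjusted p 0.22). The rise at 2 min was lost without replicate 1 of 0 min (0.07, adjusted p 0.092) or replicate 2 of 2 min (0.09, adjusted p 0.055). The WT changes at 8 min were -0.36 for local (SE 0.042, adjusted p 3.4e-07) and -0.28 for systemic leaves (SE 0.050, adjusted p 8.9e-05), with no call at 2 or 4 min. In RPKM, however, the WT systemic libraries lay between 324 and 341 at 2 min and between 285 and 297 at 0 min. XTH6 differed between the genotypes in all 6 tests, with rbohD minus WT at 0.18, 0.20 and 0.41 in local leaves (adjusted p 0.0068, 0.0045 and 8.7e-07) and at 0.48, 0.36 and 0.67 in systemic leaves (adjusted p 8.6e-09, 1.1e-05 and 7.3e-12) at 2, 4 and 8 min. The changes behind them started from different levels, which were not tested. At 0 min XTH6 took 195 ± 8.6 RPKM in rbohD local and 264 ± 4.4 in WT local leaves. It took 189 ± 4.9 in rbohD systemic and 289 ± 6.8 in WT systemic leaves. At 8 min the values in this order were 203 ± 9.3, 209 ± 7.2, 256 ± 6.4 and 260 ± 5.0. The difference of 0.18 in local leaves at 2 min became 0.07 (adjusted p 0.29) with libraries rescaled to one total, under which the WT change of -0.08 turned to 0.09 (adjusted p 0.028). Between leaves of rbohD the difference of the change, local minus systemic, was -0.45, -0.15 and -0.34 (adjusted p 1.2e-10, 0.015 and 1.1e-07), whereas in WT no difference was called (-0.15, 0.01 and -0.08). The value of -0.15 at 4 min in rbohD was lost without replicate 3 of the local leaves at 0 min (-0.13, adjusted p 0.064) or at 4 min (-0.12, adjusted p 0.068).

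XTH7, the closest relative of XTH6, varied little in rbohD and fell at 2 and 8 min in WT. Over the 4 times rbohD averaged 3244 ± 43.4, 2933 ± 25.3, 3152 ± 152 and 2998 ± 71.8 normalized counts in local leaves, and 2426 ± 30.2, 2571 ± 113, 2531 ± 62.4 and 2197 ± 90.6 in systemic leaves. In WT local leaves its libraries held 5151, 5134 and 5256 at 0 min, 3563, 3685 and 3680 at 2 min, 4701, 4686 and 5085 at 4 min, and 3860, 3538 and 3530 at 8 min. Its WT systemic libraries held 5243, 4982 and 5166 at 0 min, 3312, 3453 and 3502 at 2 min, 5327, 4837 and 5115 at 4 min, and 3351, 3370 and 3260 at 8 min. The times of its low values in WT systemic leaves are the times of the high values of XTH22.

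The changes of XTH7 at 2 and 8 min were -0.15 (adjusted p 0.00065) and -0.11 (adjusted p 0.013) in rbohD local leaves, against -0.51 and -0.51 in WT local leaves (adjusted p 3.5e-10 and 1.3e-09). In rbohD systemic leaves the change was 0.08 at 2 min (adjusted p 0.044), a call lost in edgeR (0.08, adjusted p 0.058), DESeq2 (0.08, adjusted p 0.077), without a filter (0.08, adjusted p 0.065), with one total (0.06, adjusted p 0.11) and without any of replicates 1, 2 and 3 of 0 min (0.09, 0.07 and 0.09, adjusted p 0.051, 0.12 and 0.063) or replicate 3 of 2 min (0.05, adjusted p 0.30). At 8 min it was -0.14 (adjusted p 0.0047), not called with one total (-0.10, adjusted p 0.060) or without replicate 1 of 8 min (-0.11, adjusted p 0.063). In WT systemic leaves the changes were -0.58 (SE 0.042, adjusted p 7.3e-11) and -0.62 (SE 0.042, adjusted p 4.7e-11) at these times. The difference of rbohD minus WT was 0.36 and 0.40 in local leaves (adjusted p 8.2e-07 and 1.6e-06) and 0.67 and 0.48 in systemic leaves (adjusted p 1.0e-12 and 9.6e-09) at 2 and 8 min. At 4 min it was 0.06 and 0.07 with intervals of 1.96 SE from -0.05 to 0.17 in local and from -0.04 to 0.18 in systemic leaves. These differences between the genotypes are of changes from different starting levels. At 0 min XTH7 took 155 ± 2.4 RPKM in rbohD local and 174 ± 1.3 in WT local leaves. It took 116 ± 3.6 in rbohD systemic and 162 ± 2.9 in WT systemic leaves. At 2 min the values in this order were 147 ± 1.7, 138 ± 0.51, 121 ± 5.6 and 117 ± 6.8. At 8 min they were 144 ± 3.3, 124 ± 5.6, 109 ± 3.1 and 115 ± 2.7, levels not tested between genotypes.

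**Figure D4:**
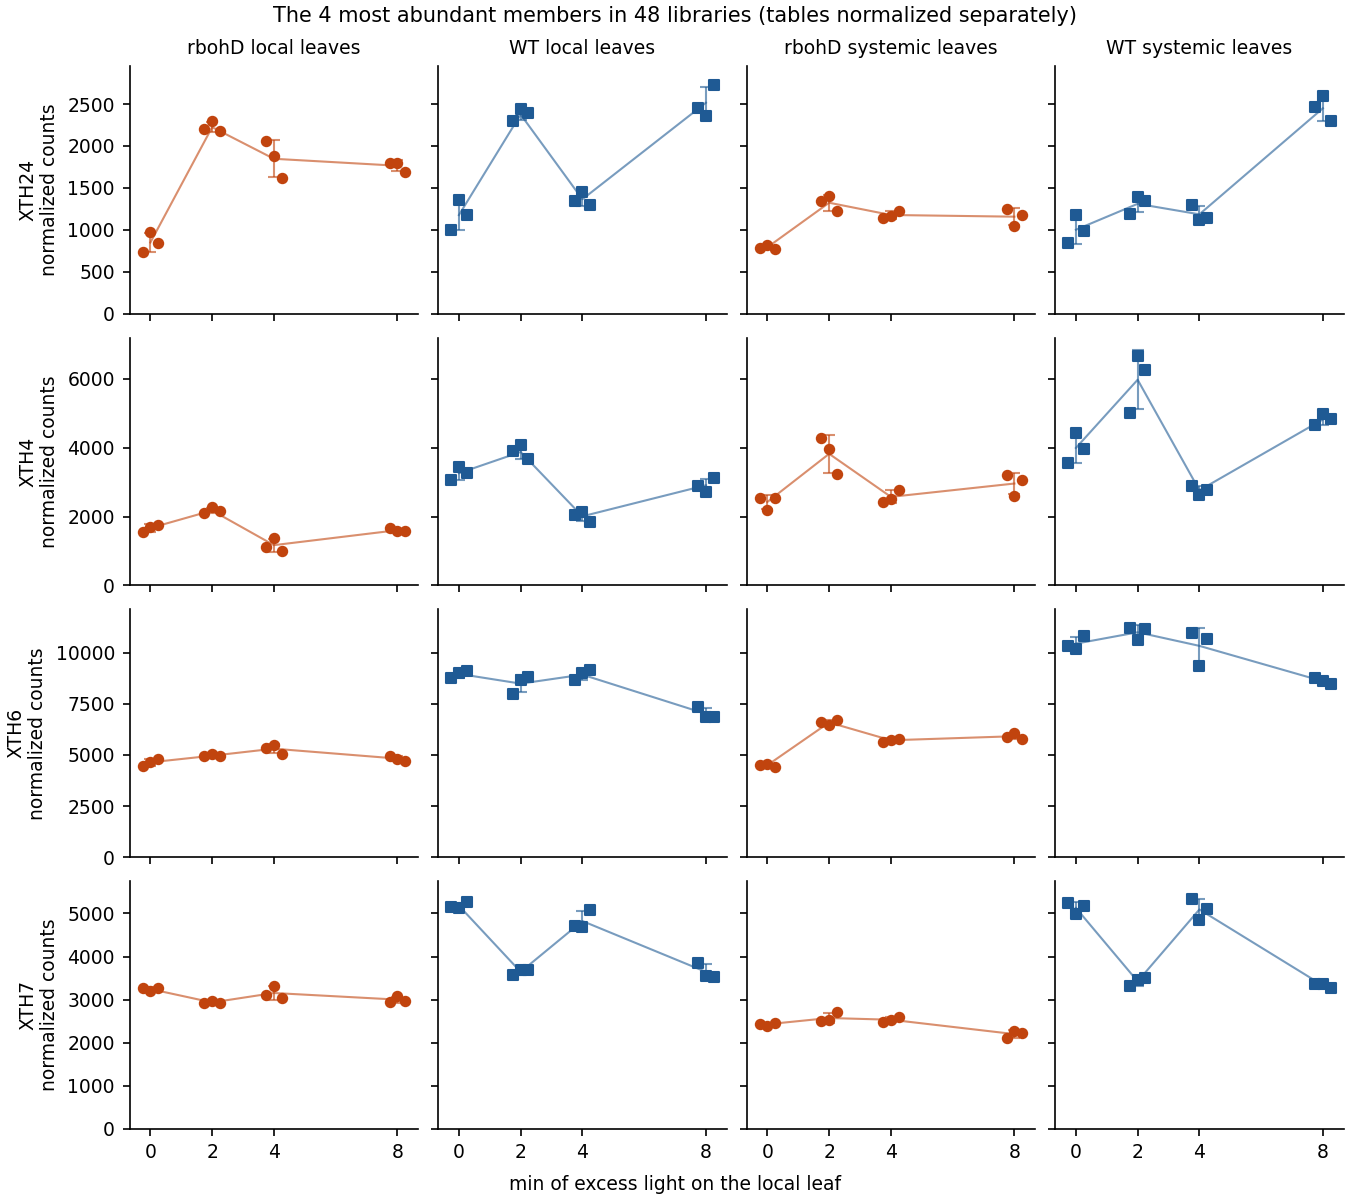
XTH24, XTH4, XTH6 and XTH7 in normalized counts (y axes from 0) in each library against the time in the light (x axis, min), with the mean and SD of 3 replicates as lines and bars. XTH7 falls to between 3312 and 3502 in WT systemic leaves at 2 min, against 4982 to 5243 at 0 min, and stays between 2391 and 2700 in rbohD systemic leaves at these times. The tables were normalized separately, so levels of WT and rbohD are not on one scale.

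XTH5 was called in 2 of its 12 comparisons with 0 min and XTH15 in 1 of the 3 in which it was tested. XTH5, the closest relative of XTH4, held 52.5, 63.2 and 50.3 normalized counts at 2 min and 68.5, 73.4 and 74.6 at 0 min in rbohD systemic leaves, a change of -0.38 (SE 0.15, adjusted p 0.027). The WT systemic libraries held 101, 92.3 and 117 at 2 min and 83.9, 81.6 and 67.9 at 0 min, a change of 0.41 (SE 0.13, adjusted p 0.013). The replicates of the 2 times did not overlap in either genotype, and the difference of rbohD minus WT was -0.79 (SE 0.20, adjusted p 0.00097). The fall in rbohD was lost in DESeq2 (-0.38, adjusted p 0.10) and without replicate 2 (-0.37, adjusted p 0.063) or 3 (-0.36, adjusted p 0.072) of 0 min or replicate 1 (-0.35, adjusted p 0.074) or 3 (-0.32, adjusted p 0.099) of 2 min, and the rise in WT without replicate 3 of 0 min (0.31, adjusted p 0.074) or 2 min (0.32, adjusted p 0.078). XTH15, which with its relatives is known for the growth of shaded petioles and stems, had 17, 5, 10 and 9 reads over the 4 times in rbohD local leaves, summed over 3 libraries, and 33, 4, 16 and 14 in WT local leaves. The ratio of 2 min to 0 min was 0.288 in rbohD local leaves (counting interval from 0.0829 to 0.812) and 0.133 in WT local leaves (0.0341 to 0.373). In systemic leaves it had 19, 25, 23 and 21 reads in rbohD and 26, 48, 27 and 41 in WT. The ratio at 2 min was 1.42 in rbohD (0.750 to 2.72) and 1.94 in WT (1.18 to 3.26), and limma gave a change of 1.01 in WT systemic leaves (adjusted p 0.024). That call was lost in DESeq2 (0.97, adjusted p 0.082) and without replicate 1 (0.78, adjusted p 0.10) or 3 (0.82, adjusted p 0.097) of 0 min or replicate 2 (0.97, adjusted p 0.063) or 3 (0.89, adjusted p 0.085) of 2 min. XTH15 thus had fewer reads at 2 min than at 0 min in local leaves of both genotypes. It was not tested there, and the intervals cover counting error only. Its call in WT systemic leaves was favoured by the filter. The libraries there held 13.1, 17.8 and 19.9 normalized counts at 2 min and 5.38, 14.7 and 5.73 at 0 min, ranges that overlap. All its reads remain uncertain through the overlap with AT4G14120.

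Counted together, the change at 2 min differed between rbohD and WT for 4 of 7 members tested in local leaves, beside 54.4% of all 17473 genes, and for 7 of 8 in systemic leaves, beside 55.8% of 17545 genes. At 4 min it differed for 3 of 7 (33.4% of all genes) and 4 of 8 (18.5%), and at 8 min for 3 of 7 (18.5%) and 4 of 8 (35.7%), in local and in systemic leaves. The 8 members tested in systemic leaves include XTH23, which entered through the libraries in which it was high and was called at 2 min. The sign of the difference varied among members. In systemic leaves at 2 min, rbohD minus WT was below 0 for XTH22, XTH23, XTH16 and XTH5 and above 0 for XTH6, XTH7 and XTH24. For XTH7 the changes behind it were 0.08 in rbohD and -0.58 in WT, and for XTH5 they were -0.38 in rbohD and 0.41 in WT. The 2 genotypes were in separate experiments, so whether genotype or experiment goes with these differences cannot be told apart. For XTH22, XTH23, XTH6 and XTH7 they are also differences of changes from different starting levels.

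**Figure D5:**
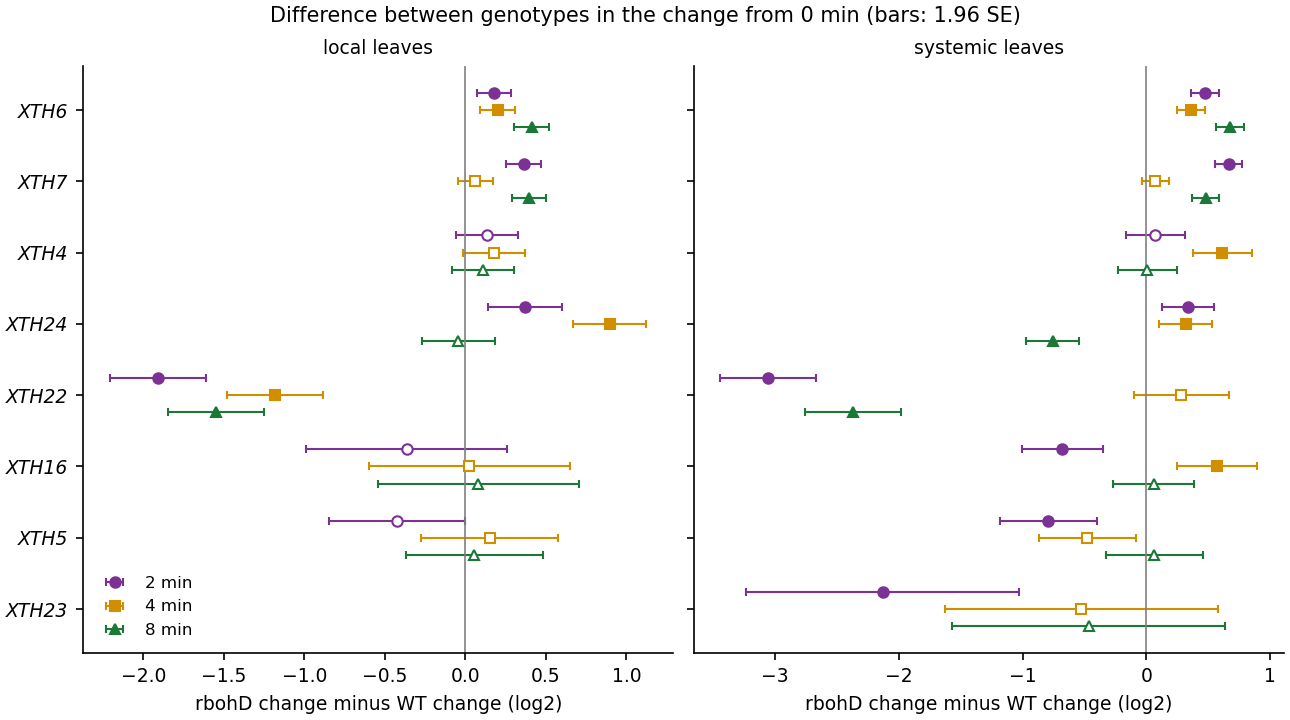
Difference between rbohD and WT in the change from 0 min (x axis, log2, rbohD minus WT) for each member tested in both genotypes, with bars of 1.96 SE and filled marks where the adjusted p is under 0.05. XTH22 lies at -3.06 in systemic leaves at 2 min, and XTH6 lies above 0 at all times in both leaves, from 0.18 to 0.67.

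The change differed between local and systemic leaves for 4 of 7 members in rbohD at 2 min (25.8% of 17244 genes), 4 of 7 at 4 min (16.6%) and 5 of 7 at 8 min (20.9%). In WT it differed for 3 of 8 at 2 min (12% of 17836 genes), 0 of 8 at 4 min (6.35%) and 3 of 8 at 8 min (13.8%). For the time with no call, 1 member, XTH22, had an unadjusted p under 0.05 in limma, edgeR and DESeq2 called 0, and with the pool of plants as a block limma called 1. For XTH4 the difference, local minus systemic, was called at 4 and 8 min in rbohD (-0.61 and -0.34, adjusted p 6.1e-05 and 0.020) and at 2 and 8 min in WT (-0.33 and -0.44, adjusted p 0.045 and 0.0041). At 2 min in rbohD it was -0.26 (adjusted p 0.068), and -0.26 (adjusted p 0.031) with the pool as a block. The values of -0.34 and -0.33 were lost in DESeq2 (-0.35 and -0.34, adjusted p 0.13 and 0.082) and without a filter (adjusted p 0.056 and 0.071), that of -0.33 also with one total (-0.27, adjusted p 0.15) and with only the groups compared (adjusted p 0.095). Single libraries moved them as far as -0.27 (adjusted p 0.088, without replicate 2 of rbohD systemic leaves at 0 min) and -0.24 (adjusted p 0.15, without replicate 2 of WT systemic leaves at 2 min). XTH7 differed between leaves once, in rbohD at 2 min (-0.23, adjusted p 0.00059).

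Over the 12 mean changes from 0 min, the members did not move as one. The correlation of XTH22 with XTH7 was r = -0.83, that of XTH6 with XTH7 0.73, that of XTH4 with XTH16 0.72 and that of XTH22 with XTH24 0.02, points that share their 0 min libraries in groups of 3 and so describe these tables only. Among 17192 genes tested in all 4 tables, the genes most like XTH22 by this measure were PHI-1 (r = 0.97), GATL10 (r = 0.93) and FSD2 (r = 0.92). PHI-1 (AT1G35140) averaged 18.5 ± 4.8, 36.6 ± 6.3, 44.1 ± 7.5 and 74.7 ± 5.2 normalized counts in rbohD systemic leaves over the 4 times, and 13.7 ± 11, 214 ± 32, 15.3 ± 6.4 and 343 ± 37 in WT systemic leaves. Those most like XTH6 were CLC2 (r = 0.94), AT2G32840 (r = 0.92) and AT2G36980 (r = 0.91). A high r takes no account of the size of the changes or of the sign of a single change. In WT local leaves, where XTH22 rose at all 3 times, FSD2 averaged 178 ± 12, 160 ± 3.6, 149 ± 3.6 and 187 ± 8.3 over the 4 times. In rbohD local leaves, where XTH6 rose at 2 and 4 min, CLC2 averaged 1366 ± 38, 1267 ± 18, 1323 ± 9.3 and 1278 ± 24.

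The 10 members held between 57.6% and 78.6% of the normalized counts of all 33 XTH genes in any library. Over the 4 times their share averaged 58.9%, 71.4%, 67.1% and 64.9% in rbohD local leaves, and 61.6%, 77.8%, 62.8% and 68.0% in WT local leaves. In systemic leaves it averaged 62.5%, 73.0%, 68.5% and 68.2% in rbohD, and 64.8%, 77.8%, 62.6% and 70.9% in WT. In WT local leaves the counts of the members summed to 18774 ± 583 at 2 min and 18819 ± 535 at 0 min, while those of the whole family summed to 24144 ± 654 and 30560 ± 577. The shift in share there lay in the other XTH genes. XTH31, which is known for hydrolysing xyloglucan, changed by -2.86 at 2 min (SE 0.046, adjusted p 3.4e-22) in the local leaves of WT, with 953 ± 5.9 normalized counts at 2 min and 6914 ± 254 at 0 min. XTH8 fell by 1.73 in rbohD local leaves at 2 min (adjusted p 2.9e-11), and XTH9 rose by 1.13 in WT systemic leaves at 2 min (adjusted p 3.7e-10). Of the other XTH genes, 5 rose and 4 fell of 12 tested in rbohD local leaves at 2 min, 2 rose and 4 fell of 13 in WT local leaves, 3 rose and 6 fell of 12 in rbohD systemic leaves, and 6 rose and 3 fell of 13 in WT systemic leaves. Of all genes, between 30.4% and 35.5% rose and between 29.9% and 33.8% fell at 2 min in these tables.

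The other lists of wall genes were counted in the same way. Expansins loosen walls without cutting them, and of 15 tested in each table none rose and 13, 13 and 14 fell in rbohD local leaves at 2, 4 and 8 min, against 6, 1 and 1 that rose and 8, 10 and 10 that fell in WT local leaves. In systemic leaves 3, 0 and 0 rose and 8, 8 and 8 fell in rbohD, and 5, 0 and 0 rose and 5, 9 and 7 fell in WT. EXPA8 fell by 2.91 (adjusted p 6.3e-29) and EXPB3 by 2.31 (adjusted p 4.9e-22) in rbohD local leaves, and EXPA16 by 2.03 in rbohD systemic leaves (adjusted p 2.3e-14), all at 2 min. Beside these counts, at most 35.5% of all genes rose and 33.8% fell at 2 min, 25% and 23.1% at 4 min, and 22.9% and 22.6% at 8 min in any table. Of the cellulose synthases of the primary wall, 5 of 5 fell in rbohD local, 5 of 5 in WT local, 5 of 6 in rbohD systemic and 5 of 6 in WT systemic leaves at 2 min, where 1 rose in rbohD systemic leaves. At 4 min 5 fell in rbohD local leaves, 3 rose and none fell in WT local leaves, 1 rose in rbohD systemic leaves and none was called in WT systemic leaves. At 8 min 4 and 5 fell in rbohD and WT local leaves, 1 rose in rbohD systemic leaves and 5 fell in WT systemic leaves. At 2 min CESA5 fell by 1.29 and CESA6 by 0.78 in WT local leaves, and CESA2 by 0.78 in WT systemic leaves. Of 13 genes of xyloglucan synthesis, 9 fell in rbohD local and 7 in WT local leaves at 2 min, and 5 fell in rbohD systemic and 4 in WT systemic leaves, with 0, 2, 0 and 4 that rose in these tables. CSLC4, a glucan synthase of xyloglucan, fell by 0.96 in rbohD local leaves, its relative CSLC5 by 1.15 in WT local leaves, and XXT1, a xyloglucan xylosyltransferase, rose by 1.11 in WT systemic leaves. The glycosidases that trim xyloglucan side chains in the wall, XYL1, BGAL10 and AXY8, fell by 1.43, 1.33 and 0.60 in rbohD local leaves at 2 min, where 3 of 3 fell, beside 0 of 3 called in WT local leaves. In rbohD systemic leaves 3 of 3 fell at 2 and at 4 min, and in WT systemic leaves 2 of 3 rose at 2 min and 2 of 3 fell at 4 min. The difference of these lists between the genotypes was not tested as a list.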

How the data were processed

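Single-end reads from 75-cycle cartridges were aligned by the authors with STAR 2.4.0.1 to TAIR10; the counting tool is not given in the sources used here. The deposited signal per gene and library is the gene count divided by a DESeq2 1.20.0 size factor, normalized by the authors within each of 4 tables of 12 libraries. All 48 libraries gave whole reads in 100% of values at a tolerance of 0.02. Size factors ran from 0.82 to 1.38, and all 48 replicate pairs differed beyond counting error (chi-square per degree of freedom from 1.26 to 5.24).

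Groups came from the labels. Changes and their differences between genotypes or leaves were fitted in R 4.3.3 by limma 3.58.1 (trend = TRUE) to log2(normalized count + 1), which understates changes of low genes, with all 4 times of a table in one fit. edgeR 4.0.16 and DESeq2 1.42.0 were run on the recovered reads. Other alternatives were a pseudocount of 5, no filter, one total per library, a replicate block, only the groups compared and each library left out. Local and systemic leaves of one time and number come, by the methods, from the same plants, and 1 of 24 such pairs had deviations correlated above 0.1 (-0.014 to 0.136, median 0.023). The WT pairs of 0 min stood at 0.084, 0.058 and 0.076. The main comparison of leaves left this pairing out, and the block was run as an alternative. Exact 95% intervals of read ratios cover counting error only. Scripts were tested on simulated counts.

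Counts over the 7 members tested in every table were added after the values were seen. The members and gene lists were chosen with earlier results of these data known. Of the other lists at most 3 genes were named, by the size of a called change at a table mean of at least 50 normalized counts. The marker lists were not under this rule, and SWEET12 was named outside it. Likeness was Pearson r over 12 mean changes for the widest-ranging and the most abundant member. Sequences and positions were taken from RefSeq TAIR10.1 by locus identifier, with all 10 members matched.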

Additional observations from a re-analysis of the deposited data

Results flagged for a closer look

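Of the tests on members, 44 differences of a change from 0 min between genotypes or between leaves passed the adjusted threshold in limma and are listed by gene, on the log2 scale. Groups of 3 libraries were not examined for single libraries far from the others.

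The change of XTH22 differed between rbohD and WT by -1.91, -1.18 and -1.55 in local leaves at 2, 4 and 8 min, and by -3.06 and -2.37 in systemic leaves at 2 and 8 min. Between local and systemic leaves it differed by -0.79, -0.90 and -0.51 in rbohD at the 3 times, and by -1.94 and -1.33 in WT at 2 and 8 min. XTH23 differed between rbohD and WT by -2.13 in systemic leaves at 2 min, a test it entered through the libraries in which it was high.

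XTH24 differed between rbohD and WT by 0.37 and 0.90 in local leaves at 2 and 4 min, and by 0.34, 0.32 and -0.76 in systemic leaves at the 3 times, so the sign turned between 4 and 8 min. Between leaves it differed by 0.66, 0.55 and 0.52 in rbohD and by 0.63 in WT at 2 min.

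XTH6 differed between rbohD and WT by 0.18, 0.20 and 0.41 in local leaves and by 0.48, 0.36 and 0.67 in systemic leaves, and between leaves of rbohD by -0.45, -0.15 and -0.34. XTH7 differed between rbohD and WT by 0.36 and 0.40 in local leaves and by 0.67 and 0.48 in systemic leaves at 2 and 8 min, and between leaves of rbohD by -0.23 at 2 min.

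XTH4 differed between rbohD and WT by 0.61 in systemic leaves at 4 min. Between leaves it differed by -0.61 and -0.34 in rbohD at 4 and 8 min, and by -0.33 and -0.44 in WT at 2 and 8 min. XTH16 differed between rbohD and WT by -0.68 and 0.57 in systemic leaves at 2 and 4 min, and between leaves by -0.93 in rbohD and -0.95 in WT at 8 min. XTH5 differed between rbohD and WT by -0.79 in systemic leaves at 2 min. Genotype and experiment coincide and cannot be told apart in the comparisons of rbohD with WT. The changes of XTH22, XTH23, XTH6 and XTH7 also started from different levels in the genotypes, given above and not tested.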

How the results depend on the processing

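Of 189 values of members in the 24 comparisons, 188 kept their direction and side of the threshold with a pseudocount of 5, 187 with the replicate block, 184 in edgeR, 182 with only the groups compared, 181 without a filter, 175 in DESeq2 and 172 with one total per library. One direction turned, that of XTH6 in WT local leaves at 2 min, which was 0.0933 with one total and -0.08 as deposited. Rescaling to one total moved the median change of all genes to 0.18 in WT local leaves at 2 min and to 0.14 and 0.11 in WT systemic leaves at 2 and 8 min, and that of the differences to -0.10 (local, 2 min) and -0.14 (systemic, 2 min) for rbohD minus WT and to -0.12 for local minus systemic in WT at 8 min. When single libraries were left out, 1595 values stayed as they were, 66 lost their call and 13 gained one.

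The count of members changed in WT systemic leaves at 4 min was 4, and 2 without a filter, in DESeq2 and with only the groups compared, with a range from 2 to 4 over single libraries left out. Members whose change differed between genotypes at 4 min numbered 3 in local leaves, and 5 with one total. In systemic leaves they numbered 4, and 2 in DESeq2, with a range from 2 to 5 over single libraries. For the leaves of WT at 4 min the count was 0, and 1 with the replicate block, with a range from 0 to 1. Blocking by replicate number changed no call other than those of XTH22 (WT, 4 min) and XTH4 (rbohD, 2 min) between leaves. Within tables, 4 of 72 same-numbered pairs of libraries correlated above 0.1. The causes were not tested. Members under about 20 normalized counts (XTH15, XTH23 and XTH33) are limited by read number.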
